A study of Mus musculus with 27 samples.

Results

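The 39 genes described here encode the machinery by which the endoplasmic reticulum (ER) takes in, folds, glycosylates, exports and destroys secretory proteins. They were chosen by symbol for these functions, and the rule uses no measured value, though earlier results of these data were known at the time. They are 39 of 56691 genes in the expression table, and 38 of them were among the 15115 genes with enough counts to test. Derl3 was the member left out, with 0 to 10 counts per library. By role they comprise 11 chaperones, 4 disulfide isomerases, 7 genes of ER-associated degradation, 2 stress sensors, 10 genes of the translocon, the translocon-associated protein complex (TRAP) and the signal peptidase, 3 subunits of oligosaccharyltransferase and 2 components of the COPII coat.

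RNA was sequenced from organoids, which are small epithelial cultures kept in Matrigel, grown from stomach cells of adult mice carrying Mist1Cre/ERT2 and RFPLSL, which are a Cre driven by the Mist1 (Bhlha15) locus and a red reporter that Cre switches on. There were 7 groups of 3 libraries. The groups labelled wild type are Mist1+ organoids with genotype WT at passages 5, 10 and 15. Knockout groups are Mist1+ organoids labelled Gpx4 KO, from mice that also carry Gpx4F/F, at passages 5, 10 and 15. The last group is Mist1- organoids with genotype WT at passage 5. All 7 groups were kept in proliferative culture. The shared protocol text describes a sort for RFP+ cells and does not set the Mist1- organoids apart, and no tamoxifen treatment is described. No label ties the 3 libraries of a group to separate mice or cultures, and p-values therefore describe the spread among libraries, which may be technical.

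The unfolded protein response is the programme by which a cell that makes many secreted proteins matches its ER to the load. Atf6 is an ER membrane protein whose released fragment acts as a transcription factor, and Ern1 (IRE1) is a membrane kinase and nuclease that splices Xbp1 mRNA into the form encoding an active transcription factor. Both arms act on promoters of ER chaperones, degradation factors and translocon genes, and in the stomach the enzyme- and mucus-secreting cells carry a large ER.

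The best known promoter element of these targets is the ER stress response element, ERSE, written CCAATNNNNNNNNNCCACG, in which N is any base. It was searched on both strands in the 250 bases before each RefSeq start (GRCm38.p6). Of the 39 members, 32 had a promoter in the table, with 35 starts. ERSE was found in 9 of these 32 genes (28.1%) and in 35 of all 27025 genes (0.130%). Because the members were chosen as genes of this response, these shares are a description and not a test. The shared letters are shown in capitals below, with coordinates in GRCm38.p6 and the sequence written 5′ to 3′ along the gene. A match on the opposite strand reads CGTGG, 9 bases, ATTGG. Windows were shortened where an annotated exon reached into them, and those of Hspa5 and Sec24d still met one. In both, the motif lies before the RefSeq start but after the first base of the gene in GENCODE M21.

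Hspa5 (chr2:34772020-34772048, + strand): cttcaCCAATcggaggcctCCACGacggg
Dnajc3 (chr14:118937807-118937865, + strand): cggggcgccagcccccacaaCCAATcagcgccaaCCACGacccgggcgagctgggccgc
Canx (chr11:50325780-50325838, - strand): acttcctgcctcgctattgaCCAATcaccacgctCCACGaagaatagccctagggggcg
Calr (chr8:84847055-84847113, - strand): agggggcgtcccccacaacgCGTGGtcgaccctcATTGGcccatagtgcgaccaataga
Creld2 (chr15:88819500-88819558, + strand): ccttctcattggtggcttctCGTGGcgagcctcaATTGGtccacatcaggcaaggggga
Pdia6 (chr12:17266471-17266529, + strand): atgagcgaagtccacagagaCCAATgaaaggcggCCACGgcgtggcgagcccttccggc
Syvn1 (chr19:6046512-6046570, + strand): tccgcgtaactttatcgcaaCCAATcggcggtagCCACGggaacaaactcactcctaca
Derl3 (chr10:75893222-75893280, + strand): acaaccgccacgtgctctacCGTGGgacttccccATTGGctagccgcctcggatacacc
Hsp90b1 (chr10:86705513-86705676, - strand): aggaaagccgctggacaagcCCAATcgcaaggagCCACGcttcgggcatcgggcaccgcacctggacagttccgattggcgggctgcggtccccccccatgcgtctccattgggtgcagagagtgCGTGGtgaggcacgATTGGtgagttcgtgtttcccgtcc

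Hsp90b1 is printed as a longer stretch because it held 2 matches, 1 on each strand. The match ended 26 bases before the start in Syvn1, 47 in Hspa5, 80 in Pdia6, 87 in Dnajc3, 108 in Creld2, 127 in Canx, 138 in Derl3 and 144 in Calr, and at 194 and 89 bases in Hsp90b1. A second element, ERSE-II, written ATTGGNCCACG, was found in Herpud1 among the members and in 10 of all genes (0.0370%). The UPR element TGACGTGG, a motif that was added after values had been seen, was found in Sec24d among the members and in 163 of all genes (0.603%).

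Herpud1 (chr8:94386357-94386407, + strand): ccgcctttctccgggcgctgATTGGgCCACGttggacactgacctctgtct
Sec24d (chr3:123267460-123267487, + strand): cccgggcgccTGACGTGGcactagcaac

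Levels are given as FPKM, counts per exonic length and library total, with the total scaled by TMM (trimmed mean of M-values). Averaged over the 21 libraries, the members spanned from 578 FPKM for P4hb, the protein disulfide isomerase, to 5.74 for Ern1 among those tested. Calr (419), Hsp90b1 (411), Hspa5 (375) and Pdia3 (310) followed P4hb. These are the lectin chaperone calreticulin, the ER-resident HSP90, the HSP70 chaperone BiP and the isomerase that works with calreticulin and calnexin. Canx stood at 180, Ssr3 at 149, Rpn1 at 136, Ddost at 113, Pdia4 at 108 and Ssr2 at 104. The next 21 members lay between 92.1 (Pdia6) and 20.1 (Edem1). Among them were the chaperones Manf (52.6), Dnajb11 (48.0), Hyou1 (40.6), Dnajc3 (40.2), Sdf2l1 (39), Creld2 (34.9) and Dnajb9 (21.7). Rpn2 (89.8), Spcs3 (73.8), Sec61a1 (57.6), Spcs1 (55.2), Sec61b (48.6), Spcs2 (41.5), Ssr4 (38.8), Ssr1 (35.9) and Sec61g (31.1) belong to the translocation and glycosylation machinery. Herpud1 (65.9) and Derl1 (37.3) act in degradation, and Sec23b (22.3) in the COPII coat. The remaining tested members were Sel1l (16.4), Sec24d (13.0), Syvn1 (10.2), Atf6 (10.1), Derl2 (10.0) and Ern1 (5.74), which include the SEL1L-HRD1 ubiquitin ligase (Sel1l and Syvn1) and both sensors. Derl3 averaged 0.105. The sensors and the ligase were thus among the 7 members with the lowest levels.

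Groups differed in modest proportions. The ratio of the highest to the lowest group mean ran from 1.13 for Derl2 to 2.34 for Atf6, and Dnajb9 (2.01), Ern1 (1.98), Sec24d (1.80) and Ssr3 (1.69) came next. Of the 38 tested members, 15 had their lowest group mean in wild-type passage 5 and 17 in wild-type passage 15. The highest group mean was in knockout passage 5 for 12, in Mist1- for 10 and in knockout passage 15 for 9. Such counts were not made over all genes, so they are not shown to be particular to the members. Wild-type passage 15 also had the widest spread among its libraries, as given below. Summed over all members, libraries held 12629 to 12753 CPM (counts relative to the TMM-scaled library total) in wild-type passage 5, 13353 to 13426 in wild-type passage 10 and 11726 to 13493 in wild-type passage 15. The knockout sums were 15419 to 15547, 14487 to 14618 and 15141 to 15218 at passages 5, 10 and 15, and Mist1- gave 15134 to 15289. Every knockout library thus held a larger sum than every wild-type library.

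**Figure D1:**
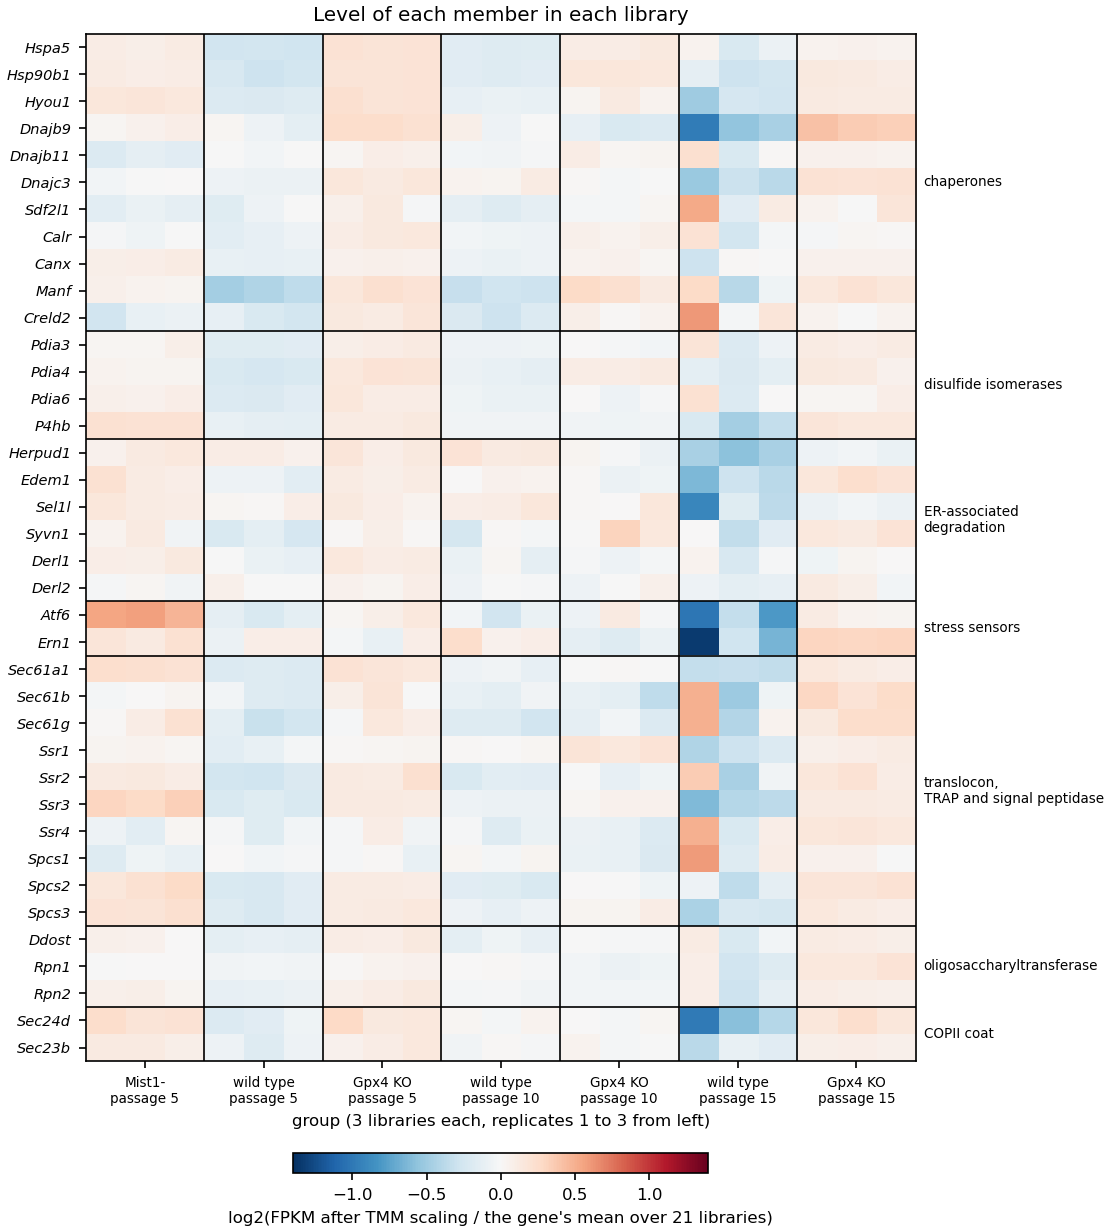
Each row is 1 of the 38 tested members, grouped by role, and each column 1 library; colour gives the log2 ratio of its TMM-scaled FPKM to the gene's mean over 21 libraries. Wild-type passages 5 and 10 are mostly below the mean, knockout and Mist1- mostly above it, and the 3 libraries of wild-type passage 15 differ from each other.

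The libraries held 13805585 to 19608956 counts in genes. Wild-type passage 15 stood apart from the other groups: the biological coefficient of variation among its 3 libraries was 21.1%, against 1.89% to 3.07% in the other 6. Genes with exons under 1000 bases took 3.77% of counts in its replicate 1, 2.47% in replicate 2 and 2.95% in replicate 3, against 2.41% to 2.87% in all other libraries. Because the spread is estimated for each gene over all groups, this group also enters the p-values of comparisons it is not part of, and member counts are given with and without it. Gpx4, the targeted gene, had a lower mean in knockout organoids at each passage but was present, and at passage 10 the difference was not called. Its mean was 57.7 ± 0.99 FPKM (SD, n = 3) against 75.3 ± 3.2 in wild type at passage 5 (edgeR adjusted p = 0.0362), 55.3 ± 3.8 against 68.2 ± 3.7 at passage 10 (adjusted p = 0.0940) and 49.8 ± 1.4 against 82.5 ± 28 at passage 15 (adjusted p = 0.000215). The wild-type libraries of passage 15 held 113, 60.2 and 73.9 FPKM of Gpx4, highest in replicate 1, and the gene was not retested without that library. Bhlha15, the gene of the Mist1 label, was higher in Mist1- organoids (2.97 ± 0.62) than in the wild-type Mist1+ organoids of passage 5 (1.57 ± 0.18, adjusted p = 1.89e-05). That order is the reverse of the group names, and Bhlha15 ran from 0.59 to 3.22 FPKM among the Mist1+ libraries. Whether this mRNA in culture should follow the label is not known here, so the groups are called by their labels only. Surface mucous (pit) and mucous neck markers of the stomach had high summed levels, whereas the chief cell markers Pga5, Lipf, Chia1 and Cpb1 had 0 counts in all 21 libraries. Most of the mucous neck sum was Clu (1640 to 4800 FPKM), while the neck marker Muc6 stayed at or under 0.0569 FPKM. Over all libraries, summed levels were 131 to 271 CPM for chief, 200 to 626 for parietal, 2.85 to 18.3 for immune, 0.845 to 3.14 for tuft, 0.213 to 1.76 for endocrine, 0.177 to 4.06 for fibroblast and 0.360 to 2.66 for endothelial markers, and 35300 to 50300 for mitochondrially encoded mRNAs. Most of the parietal sum was Slc9a4 (24.1 to 111 FPKM) and Kcnq1 (12.5 to 27.8), with Atp4a and Atp4b at or under 1.13 and 0.119. Most of the chief sum was Rab3d (28.8 to 57.7).

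At passage 5, knockout organoids held more transcript of most ER folding and translocation genes than wild-type organoids. Of 38 members, 25 rose and 0 fell by edgeR's quasi-likelihood test at an adjusted p under 0.05, and none was lower at an unadjusted p under 0.05, by DESeq2 or by limma. Among all genes tested 13.0% rose and 17.0% fell. The median log2 fold change of members was 0.24, against -0.00 over all genes. Chaperones rose in 9 of 11 cases, disulfide isomerases in 4 of 4, COPII genes in 2 of 2, oligosaccharyltransferase subunits in 2 of 3, translocon and signal peptidase genes in 5 of 10, degradation genes in 3 of 6 and sensors in 0 of 2.

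Hspa5, which binds unfolded chains and holds the sensors inactive, measured 311, 313 and 310 FPKM in wild type and 431, 426 and 428 in knockout at passage 5. The knockout libraries were all higher, by 0.46 ± 0.053 (log2 ± SE, adjusted p = 8.35e-07), a 1.38-fold difference. Hsp90b1, the ER paralogue of HSP90, measured 352, 337 and 344 against 466, 466 and 469, again without overlap (log2 0.44 ± 0.048, adjusted p = 3.59e-07). Hyou1, an exchange factor for BiP, rose from 35.6, 35.4 and 35.9 to 47.4, 45.9 and 46.2 (log2 0.38 ± 0.055, adjusted p = 1.33e-05). Manf, a small secreted ER stress protein, showed the highest fold change of any member, 1.53-fold (log2 0.61 ± 0.097, adjusted p = 4.86e-05). Dnajc3 and Dnajb9, J-domain co-chaperones of BiP, rose by 0.23 and 0.30, and Calr, Canx and Creld2 by 0.24, 0.17 and 0.33. The 2 chaperones not called were Dnajb11 (0.08) and Sdf2l1 (0.14), which form a co-chaperone complex.

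Pdia4 had the smallest adjusted p of all members. This isomerase measured 93.2, 92.2 and 93.3 FPKM in wild type and 120, 124 and 123 in knockout (log2 0.40 ± 0.043, adjusted p = 3.14e-07). P4hb measured 538, 529 and 528 against 625, 627 and 636 (log2 0.24 ± 0.053, adjusted p = 0.00122). Pdia6 rose by 0.30 and Pdia3 by 0.27. All 4 isomerases that form and rearrange disulfide bonds were therefore higher, without overlap of libraries in the 2 given.

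Sec61a1, the pore of the translocation channel, measured 50.3, 50.9 and 50.4 FPKM in wild type and 66.5, 64.8 and 63.7 in knockout, a difference of 0.36 ± 0.042 (adjusted p = 1.03e-06). Its smaller partners Sec61b (0.23) and Sec61g (0.31) were not called, at adjusted p = 0.272 and 0.0927. In TRAP, which assists insertion, Ssr2 (0.40) and Ssr3 (0.31) rose, and Ssr1 (0.12) and Ssr4 (0.09) were not called. In the signal peptidase, which cuts off the leader, Spcs2 (0.31) and Spcs3 (0.32) rose, and Spcs1 (-0.02) was not called. Ddost, a subunit of the enzyme that attaches N-glycans, measured 103, 105 and 104 against 122, 121 and 125 (log2 0.24 ± 0.059, adjusted p = 0.00393), Rpn2 rose by 0.20, and Rpn1 stood at 0.10 without a call.

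In ER-associated degradation, Derl1, a rhomboid-like protein of the retrotranslocation complex, measured 37.1, 35.0 and 34.5 against 41.2, 40.1 and 40.3 (log2 0.19 ± 0.061, adjusted p = 0.0219). Edem1, which trims mannose from misfolded glycoproteins, rose by 0.20 and the ligase Syvn1 by 0.24. Herpud1 (0.04), Sel1l (0.04) and Derl2 (0.04) were not called. Sec23b, a COPII coat protein of ER exit vesicles, measured 21.2, 19.7 and 21.2 against 23.3, 23.9 and 24.6 (log2 0.21 ± 0.059, adjusted p = 0.00902), and Sec24d rose by 0.32. The sensors did not pass: Atf6 measured 9.30, 8.77 and 9.22 against 10.3, 10.7 and 11.2 (log2 0.24 ± 0.11, adjusted p = 0.112), without overlap, and Ern1 measured 5.42, 6.12 and 6.12 against 5.63, 5.32 and 6.12, with overlap.

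Leaving out each of the 6 libraries in turn gave 19 to 22 member calls. Of the 25, 15 kept the call in every case. Canx and Syvn1 lost it without any 1 library, Dnajb9 without wild-type replicate 3, Sec23b without wild-type replicate 2 and Sec24d without knockout replicate 1. Calr lost it without knockout replicate 3 or wild-type replicate 1, Creld2 without knockout replicate 3 or wild-type replicate 2 or 3, and Derl1 without knockout replicate 1 or wild-type replicate 2 or 3. Edem1 lost it without knockout replicate 1 or 3 or wild-type replicate 3, and Rpn2 without knockout replicate 2 or 3 or wild-type replicate 1 or 2. Without wild-type passage 15 in the fit, 32 members rose and 0 fell (all genes, 3324 and 3771 of 14984). Scaling by library totals alone gave 31 and 0, while the split over all genes moved from 1970 higher and 2577 lower to 3045 and 1952. Markers of other cell types moved in this comparison as well. All 7 pit cell markers fell (summed 1560 to 1590 CPM in knockout and 5220 to 5370 in wild type), mucous neck markers summed 10000 to 10200 against 16900 to 17200, parietal markers 268 to 271 against 618 to 626, and all 18 proliferation genes rose (3290 to 3350 against 2360 to 2410). The mucous neck sum follows mostly Clu, and the parietal sum mostly Slc9a4 and Kcnq1, so neither sum measures the presence of those cells. The part of these shifts in members' levels was not tested, and in bulk RNA fewer cells of a type and less RNA per cell cannot be told apart.

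**Figure D2:**
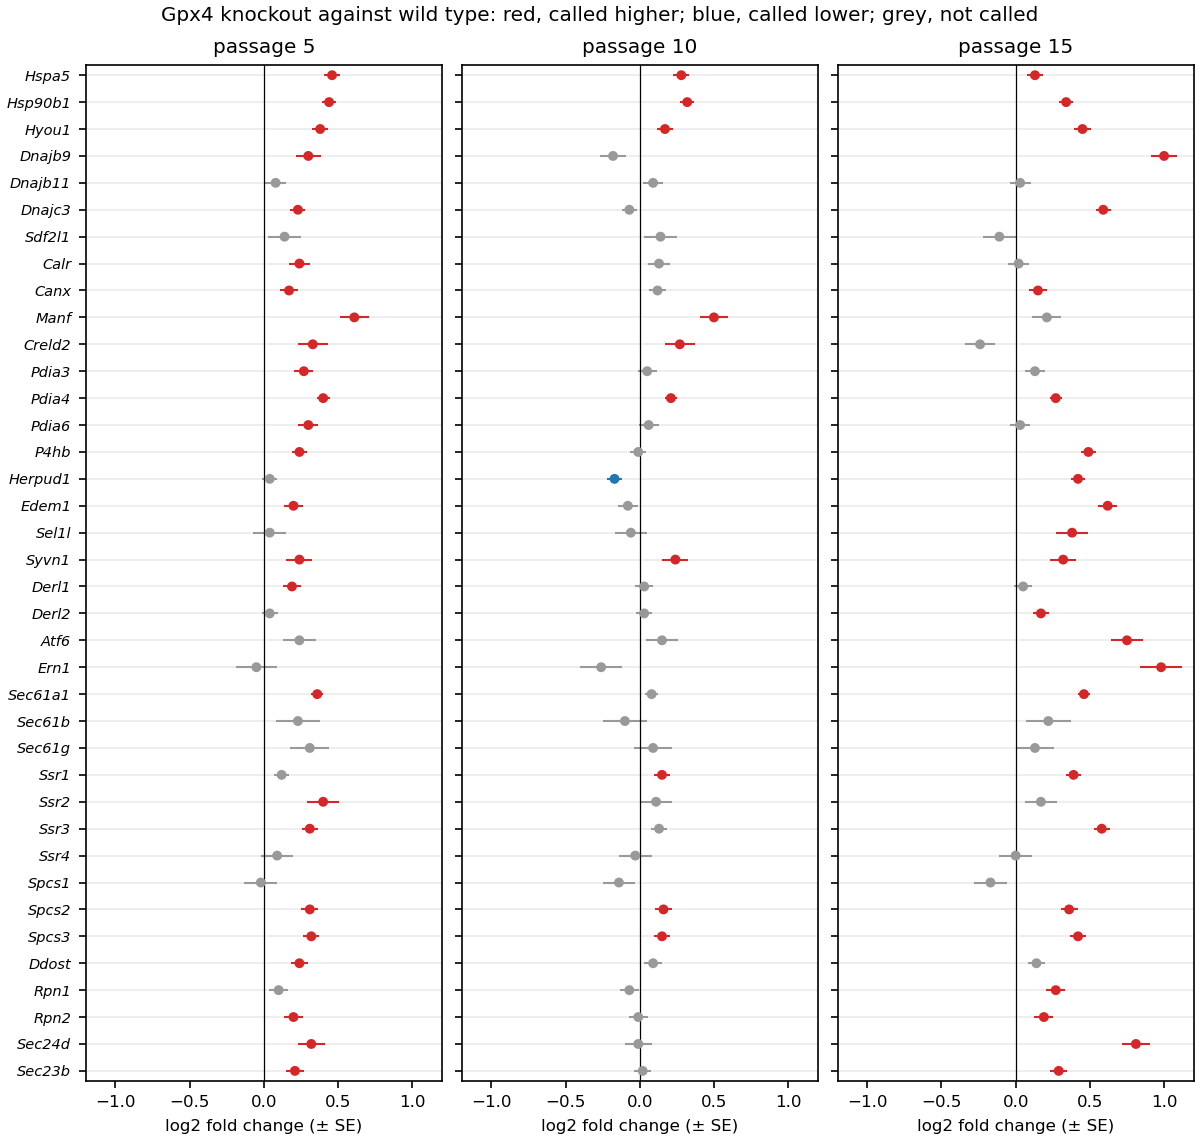
Points give the log2 fold change of knockout against wild type for each tested member at passages 5, 10 and 15, with bars of 1 SE. Red points mark 25, 10 and 24 members called higher, the blue point is Herpud1 at passage 10, and grey points were not called.

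At passage 10, fewer members differed. Of 38, 10 rose (15.9% of all genes did) and 1 fell (18.5% of all genes), with a median log2 fold change of 0.08. The risen members were led by chaperones: Hsp90b1 measured 367, 362 and 369 FPKM in wild type and 460, 458 and 455 in knockout (log2 0.32 ± 0.048, adjusted p = 1.90e-05). Hspa5 measured 336, 332 and 334 against 404, 402 and 413 (log2 0.28 ± 0.053, adjusted p = 0.000256). Manf rose by 0.50, Hyou1 by 0.17 and Creld2 by 0.27. Libraries of the 2 genotypes did not overlap for Hspa5 or Hsp90b1.

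Pdia4 rose by 0.21 ± 0.042 at passage 10, from 102, 101 and 99.2 to 116, 116 and 118 FPKM, while the other 3 isomerases lay between -0.01 (P4hb) and 0.06 (Pdia6). Ssr1, Spcs2, Spcs3 and Syvn1 rose by 0.15, 0.16, 0.15 and 0.24. The member that fell was Herpud1, which helps assemble the degradation complex, from 75.5, 71.9 and 72.3 to 67.7, 65.1 and 62.4 (log2 -0.17 ± 0.049, adjusted p = 0.0103), and it was not called after scaling by library totals (-0.10). Atf6 stood at 0.15 and Ern1 at -0.26, neither called. No oligosaccharyltransferase or COPII gene was called.

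This comparison depended on the fit. Leaving out single libraries gave 4 calls without wild-type replicate 1, 7 without wild-type replicate 2, 6 without wild-type replicate 3, and 7, 6 and 5 without knockout replicates 1, 2 and 3. The 4 calls kept throughout were those of Hspa5, Hsp90b1, Manf and Pdia4. With wild-type passage 15 left out of the fit, 21 rose and 7 fell (all genes, 3701 and 4093 of 14984). Scaling by library totals gave 16 members higher and 0 lower, as did limma with either pseudocount, and the totals moved the split over all genes from 2408 higher and 2796 lower to 3323 and 2176. Pit markers fell in 7 of 7 cases (2440 to 2630 against 7140 to 7390 CPM), mucous neck markers summed 8520 to 8740 against 14600 to 14900 and parietal markers 300 to 304 against 541 to 553, and proliferation genes rose in 18 of 18 (3690 to 3770 against 2590 to 2640). What these shifts contribute to the members was not tested.

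At passage 15, 24 members rose and 0 fell in knockout organoids, against 23.6% and 25.3% of all genes, with a median log2 fold change of 0.27. By edgeR, 1 member was lower at an unadjusted p under 0.05, and DESeq2 and limma called none lower. Both sensors, 5 of 6 degradation genes, 6 of 11 chaperones, 2 of 4 isomerases, 5 of 10 translocation genes, 2 of 3 oligosaccharyltransferase subunits and 2 of 2 COPII genes rose. These calls were related to exonic length. Of the 19 members over the median of 3888.5 bases, 19 rose (median log2 0.38), and of the 19 others 5 rose (0.13). Medians over all genes split at that length were 0.10 and -0.15. With an offset for length, added after seeing the data, 29 members rose and 0 fell (all genes, 3396 and 3977). The members with the highest folds were other ones than at passage 5. Dnajb9, a co-chaperone that restrains IRE1, measured 11.0, 14.8 and 15.9 FPKM in wild type and 28.9, 27.8 and 27.4 in knockout, a 2.00-fold difference (log2 1.00 ± 0.087, adjusted p = 7.97e-09). Ern1 measured 2.27, 4.74 and 3.65 against 7.09, 7.01 and 7.05 (log2 0.98 ± 0.14, adjusted p = 1.48e-05), and Atf6 5.01, 8.07 and 5.81 against 11.0, 10.5 and 10.4 (log2 0.75 ± 0.11, adjusted p = 1.38e-05). All knockout libraries exceeded all wild-type libraries for these genes, and the wild-type libraries were widely spread.

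Dnajc3 had the smallest adjusted p at passage 15, with 28.0, 32.7 and 31.0 FPKM in wild type and 46.4, 45.9 and 46.1 in knockout (log2 0.59 ± 0.051, adjusted p = 5.85e-09). Sec24d, a cargo-selecting COPII protein, measured 6.56, 8.70 and 9.90 against 14.5, 15.3 and 14.5 (log2 0.81 ± 0.092, adjusted p = 3.93e-07). Edem1 measured 13.0, 16.5 and 15.5 against 22.4, 23.6 and 23.0 (log2 0.62 ± 0.065, adjusted p = 1.54e-07). Neither gene's libraries overlapped between genotypes.

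Ssr3, a TRAP subunit, measured 97.0, 113 and 116 against 163, 163 and 161 at passage 15 (log2 0.58 ± 0.055, adjusted p = 3.36e-08). P4hb measured 500, 416 and 458 against 651, 643 and 643 (log2 0.49 ± 0.053, adjusted p = 1.91e-07). Sec61a1 measured 45.6, 46.2 and 45.4 against 64.0, 62.6 and 61.4 (log2 0.46 ± 0.043, adjusted p = 2.38e-08). The 3 wild-type libraries lay close together for this channel gene. Hyou1 rose by 0.45, Herpud1 by 0.42, Hsp90b1 by 0.34 and Pdia4 by 0.27.

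Hspa5, by contrast, measured 387, 323 and 354 FPKM in wild type and 387, 390 and 389 in knockout at passage 15, and wild-type replicate 1 reached the knockout level. The difference was 0.13 ± 0.053 (adjusted p = 0.0468), 0.20 without wild-type replicate 1 and 0.07 without wild-type replicate 2, and the call was lost without any 1 of 5 libraries. Rpn2 (0.19) lost its call without wild-type replicate 2 (0.10), without wild-type replicate 3, or without knockout replicate 1. Canx (0.15) lost it without wild-type replicate 1 (0.05) or any knockout library, and Derl2 (0.17) without knockout replicate 1 or 2. Calr (0.02), Pdia6 (0.03), Creld2 (-0.24), Sdf2l1 (-0.11) and Spcs1 (-0.17) were not called.

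Wild-type passage 15 is the control at passage 15, so its libraries set these values. With its replicate 2 as the sole control, members had a median log2 fold change of 0.38. That library was chosen after seeing the data because its share of counts in short genes lay in the range of the other groups. Calls with that single library assume that it varies like the other groups. Without replicate 1, 33 members were called higher and 0 lower (all genes, 3159 and 3377 of 15444). Without replicate 2 they were 22 and 3 (all genes, 4554 and 4586 of 15451). Without replicate 3 they were 22 and 1 (all genes, 3129 and 3560 of 15463). Library totals gave 24 and 1 (all genes, 3372 and 3938), as did the test with no low-count filter (all genes, 3663 and 3608 of 30813). With replicate 2 as the sole control, Dnajb9 stood at 0.91, Ern1 at 0.57, Atf6 at 0.39, Sel1l at 0.10 in place of 0.38 and Hspa5 at 0.26. When the fit held only the 2 groups compared, 15 members were called, all higher. The pit markers rose in 6 of 7 cases in knockout (4860 to 4940 against 941 to 1570 CPM), mucous neck markers summed 9200 to 9230 against 6160 to 8690 and parietal markers 294 to 317 against 244 to 274. Proliferation genes rose in 3 and fell in 11 of 18, and the 5 squamous markers summed 1.09 to 2.61 in knockout and 189 to 271 in wild type. Nearly all of that sum was Krt4, a mucosal keratin with 0.484 to 126 FPKM over all libraries, while Krt5, Krt14 and Trp63 stayed at or under 0.335, 0.0742 and 0.0141 FPKM. Their part in the members' levels was not tested.

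The 3 knockout comparisons share no libraries, but they share a fit and its spread estimate for each gene. No label says whether the 3 passages come from separate cultures. Hsp90b1, Hspa5, Hyou1, Pdia4, Spcs2, Spcs3 and Syvn1 rose at all 3 passages, 7 of 38 members against 2.35% of all genes. Leaving out 1 library of passage 10 lowered the 7 to 3 (wild-type replicate 1 or knockout replicate 2), 4 (replicate 3 of either genotype) or 5 (the others). Hsp90b1, Hspa5 and Pdia4 made up the 3, and the passage 15 call of Hspa5 was lost as given above. DESeq2 placed 10 members in this set and limma 12. Leaving out any 1 library of passage 5, or blocking by replicate, left 6, without Syvn1. The test with no low-count filter gave 5 and the fits of only the groups compared gave 8, both without Hspa5. Hsp90b1 alone was in the set in every run. Of the 25 members risen at passage 5, 17 (68.0%) also rose at passage 15, which is 70.8% of the 24 there. Over all genes, 657 rose at both, 33.4% of those at passage 5 and 18.4% of those at passage 15. Of the 10 risen at passage 10, 9 (90.0%) had risen at passage 5, against 54.4% of the 2408 genes risen at passage 10. Those 9 became 4, 5 or 6 without the same libraries in turn. The fold change was above 0 at all 3 passages in 23 members, and 17.4% of all genes did so. Dnajb11, Sdf2l1, Sec61b, Sec61g, Ssr4 and Spcs1 rose at none of the 3.

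**Figure D3:**
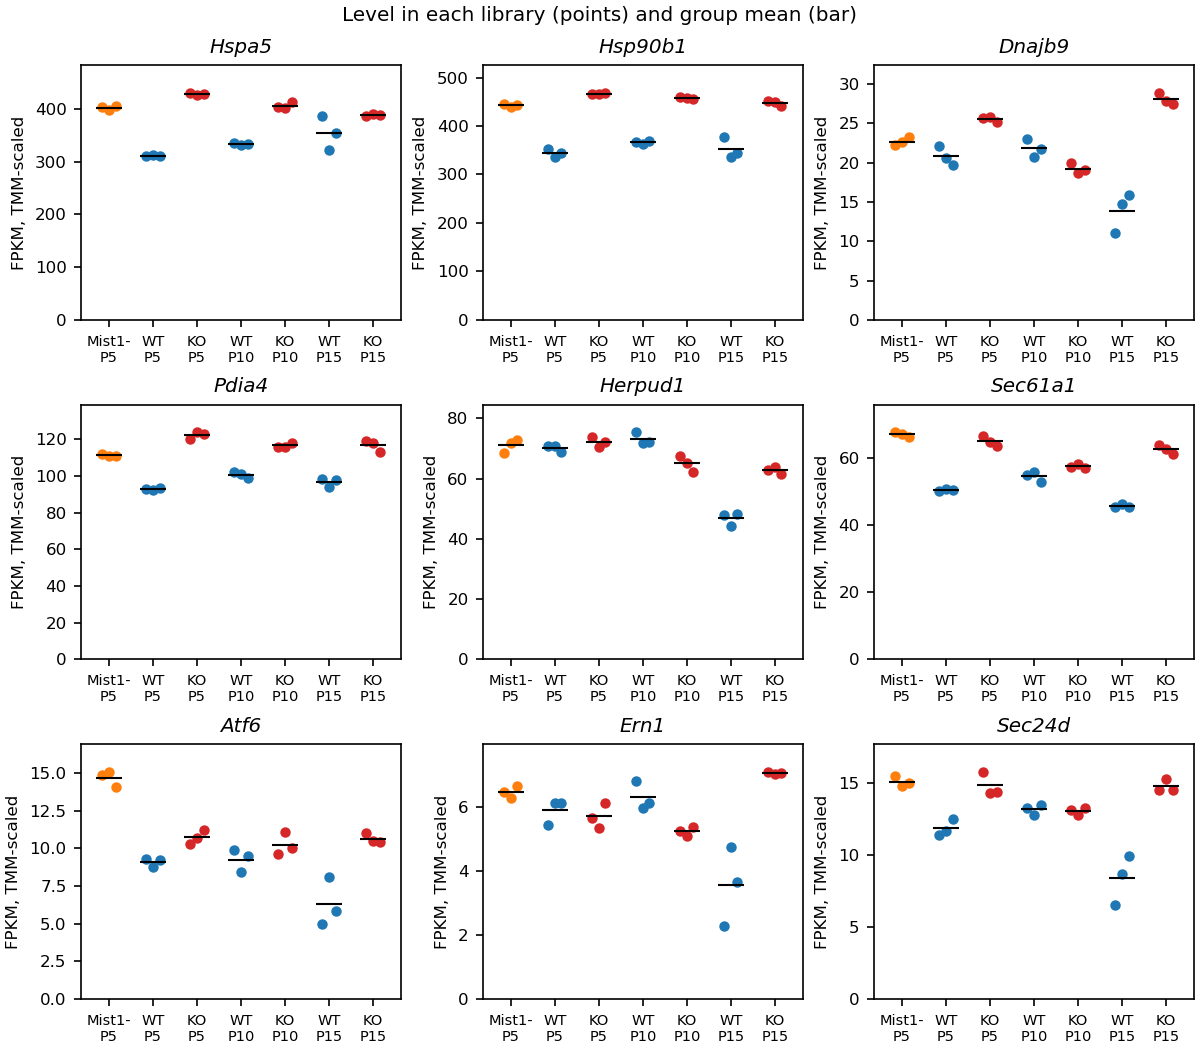
TMM-scaled FPKM of 9 members in each of 21 libraries, with a bar at the group mean; blue is wild type, red knockout and orange Mist1-. Hspa5 and Hsp90b1 are higher in knockout at passages 5 and 10, whereas Dnajb9, Atf6, Ern1 and Sec24d are lowest in wild-type passage 15.

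Members with an ERSE match were compared with the others by their counts. At passage 5, 8 of 8 tested members with a match rose in knockout (median log2 0.27, from 0.17 to 0.46), where 13.0% of all genes did. That count was 4 of 8 without knockout replicate 3, where Calr, Canx, Creld2 and Syvn1 were not called, 5 without any 1 wild-type library and 6 without knockout replicate 1 or 2. Of 23 members with a promoter and no match, 11 rose (median 0.20, from -0.05 to 0.40), and of 7 without a promoter in the table, 6 rose. At passage 10 the counts were 4 of 8 and 3 of 23, where 15.9% of all genes rose. At passage 15 they were 5 of 8 and 15 of 23, where 23.6% of all genes rose. Leaving out 1 library lowered the 4 of 8 to 2 or 3, and the 5 of 8 became 3 without any 1 knockout library. The matched members not called at passage 15 were Calr, Creld2 and Pdia6. Among the 2 genes printed for other elements, Herpud1 was called lower at passage 10 and higher at passage 15, and Sec24d rose at passages 5 and 15.

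Organoids labelled Mist1- at passage 5 held more of these transcripts than the wild-type organoids labelled Mist1+. Of 38 members, 21 fell in Mist1+ (16.2% of all genes did) and 0 rose (18.8% of all genes), with a median log2 difference of -0.21. No member was higher at an unadjusted p under 0.05, by DESeq2 or by limma. The comparison shares its wild-type libraries with the knockout comparison of passage 5, so low values there enter both. Isomerases fell in 4 of 4 cases, COPII genes in 2 of 2, chaperones in 5 of 11, translocon and signal peptidase genes in 5 of 10, degradation genes in 3 of 6, oligosaccharyltransferase subunits in 1 of 3 and sensors in 1 of 2.

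Sec61a1 measured 67.8, 67.1 and 66.4 FPKM in Mist1- organoids, above the 50.3 to 50.9 of wild-type Mist1+ (log2 -0.41 ± 0.042, adjusted p = 1.18e-07). Ssr3 measured 184, 180 and 188 in Mist1- and 129, 133 and 129 in Mist1+ (log2 -0.49 ± 0.055, adjusted p = 3.22e-07). Atf6 had the largest difference among members, with 14.9, 15.1 and 14.1 in Mist1- and 9.30, 8.77 and 9.22 in Mist1+ (log2 -0.69 ± 0.11, adjusted p = 3.06e-05). Atf6 was higher in all 3 Mist1- libraries than in any of the other 18. Hspa5 measured 403, 397 and 406 in Mist1- (log2 -0.37 ± 0.053, adjusted p = 9.81e-06) and Hsp90b1 445, 440 and 443 (log2 -0.36 ± 0.048, adjusted p = 3.18e-06). Spcs2 and Spcs3 differed by -0.41 and -0.38, and P4hb by -0.33. Ern1 (-0.13), Herpud1 (-0.02), Dnajc3 (-0.06) and Dnajb9 (-0.12) were not called.

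Leaving out each library gave 17 to 19 calls in the Mist1 comparison. Pdia3 lost its call without Mist1- replicate 3, Ssr2 without Mist1+ replicate 2, Syvn1 without any library but Mist1- replicate 3, Ddost without any but Mist1- replicate 3, and Derl1 without any but Mist1+ replicate 1. Without wild-type passage 15 in the fit, 30 members fell and 2 rose (all genes, 3855 and 4020 of 14984). Library totals gave 24 members lower, and moved all genes from 2842 higher and 2448 lower to 2393 and 3124. All 7 pit markers were higher in Mist1+ (5220 to 5370 against 726 to 756 CPM), mucous neck markers summed 16900 to 17200 against 6390 to 6460, parietal markers 618 to 626 against 200 to 205, and 11 of 18 proliferation genes were lower. Their part in the member differences was not tested.

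From passage 5 to 10 in wild type, members were mostly a little higher without passing the test. The difference was above 0 in 33 of 38 (median 0.07, against 0 over all genes), and the summed member levels given above did not overlap. The share of all genes above 0 was not counted, and the members share the same libraries and scaling. No member was called by edgeR (2.04% of all genes rose and 2.84% fell), 4 were higher and 0 lower at an unadjusted p under 0.05, DESeq2 called 3 higher, and limma called 1 with either pseudocount. The differences ran from -0.06 to 0.15. With wild-type passage 15 left out of the fit, 19 rose and 0 fell (all genes, 1377 and 1389 of 14984), with the median difference at 0.07. Knockout organoids fell from 5 to 10 in 3 members (3.72% of all genes) and rose in 0 (3.89%). Those were Dnajb9, from 25.7, 25.8 and 25.2 to 20.0, 18.7 and 19.0 FPKM (log2 -0.41 ± 0.085, adjusted p = 0.00301), Sec61a1 (-0.18 ± 0.042, adjusted p = 0.0106) and P4hb (-0.18 ± 0.053, adjusted p = 0.0423).

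For that step, 1 member was higher at an unadjusted p under 0.05, and DESeq2 called 1 higher and limma none. In the fit without wild-type passage 15, 25 fell and 1 rose (all genes, 1573 and 1757 of 14984). The call of P4hb was lost without any 1 of the 6 libraries. That of Sec61a1 was lost without knockout passage 5 replicate 1 or passage 10 replicate 3. From passage 5 to 15 in knockout, Herpud1 fell by 0.20 ± 0.049 (adjusted p = 0.00726), from 73.9, 70.5 and 72.3 to 62.8, 64.0 and 61.6, against 7.20% of all genes. That call was not made without the low-count filter. None rose (5.77% of all genes), with 1 higher at an unadjusted p under 0.05 and none by DESeq2 or limma. Without wild-type passage 15 in the fit, 10 rose and 9 fell (all genes, 2158 and 2334 of 14984). Knockout levels of Hspa5 were 428 on average at passage 5 and 389 at passage 15 (log2 -0.14, adjusted p = 0.0921).

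From passage 5 to 15, wild-type organoids changed in both directions. Of 38 members, 5 rose (24.7% of all genes) and 14 fell (26.6%), with a median of 0.01. The members that rose were Creld2 (0.47), Manf (0.38), Sdf2l1 (0.27), Pdia6 (0.20) and Hspa5 (0.19). Herpud1 fell from 70.8, 70.9 and 69.0 to 48.0, 44.2 and 48.3 FPKM (log2 -0.58 ± 0.050, adjusted p = 5.92e-09), with tight libraries in both groups. Dnajb9 fell by 0.57 ± 0.088 (adjusted p = 1.90e-05) and Dnajc3 by 0.32 ± 0.051 (adjusted p = 3.01e-05). Ern1 (-0.72), Atf6 (-0.53), Sec24d (-0.50), Sel1l (-0.50), Edem1 (-0.33), Ssr3 (-0.26), P4hb (-0.21), Ssr1 (-0.21), Sec61a1 (-0.14), Hyou1 (-0.14) and Derl2 (-0.13) also fell. The 4 degradation genes that fell were Herpud1, Edem1, Sel1l and Derl2.

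These differences were related to exonic length per gene, with exceptions such as Herpud1 (2333 bases) and Dnajb9 (2549 bases), which are short and fell. For the 38 members, Spearman's rho between exonic length (1108 to 10431 bases) and this log2 difference was -0.62, and -0.22 over all 15115 genes, as a description across genes that share the libraries. Of the 19 members at or under the median length of 3888.5 bases, 4 rose and 3 fell (median 0.14). Of the 19 longer ones, 1 rose and 11 fell (median -0.14). Medians over all genes split at that length were 0.11 and -0.12. Within wild-type passage 15, replicate 1 had the highest level of the 3 libraries in 23 members and the lowest in 13, and its deviations had a rho of -0.71 with length, against 0.72 for replicate 2 and 0.39 for replicate 3. Spcs1, a short signal peptidase gene, measured 83.2, 48.5 and 59.5 FPKM in the 3 libraries, and Sec61b 68.8, 34.1 and 46.7, highest in replicate 1. Sel1l, a long gene, measured 8.70, 14.5 and 12.7, lowest in replicate 1. The part of exonic length in the passage 15 values was not tested further than by the alternatives given.

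**Figure D4:**
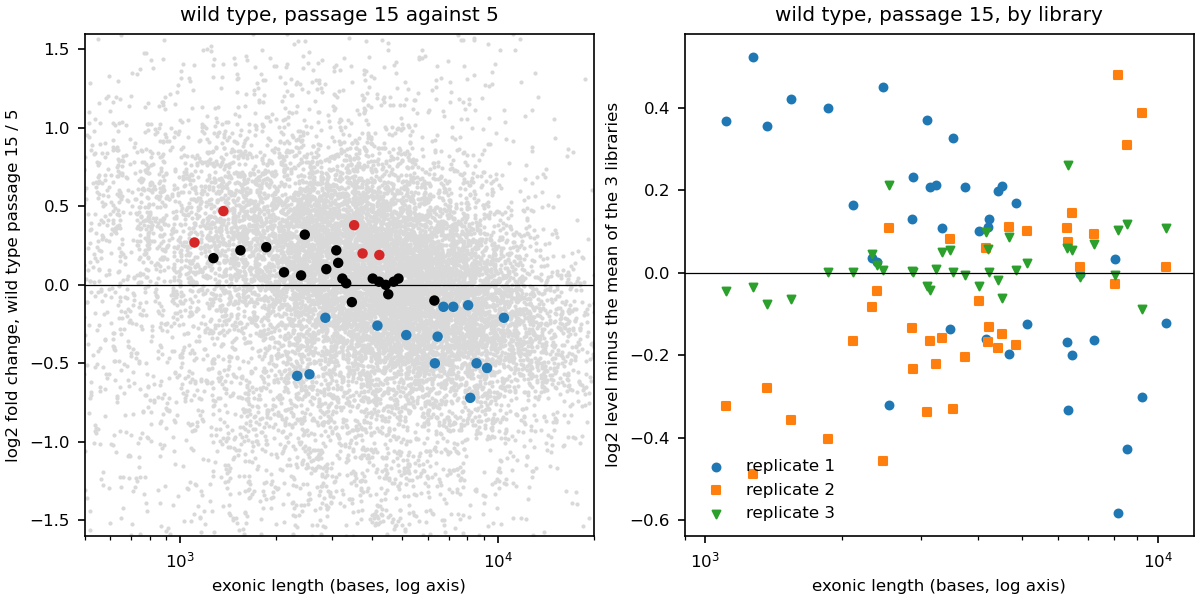
Left, exonic length (log axis) against the log2 change of wild-type organoids from passage 5 to 15, with members called higher in red, lower in blue and not called in black over all other genes in grey. Right, each member's level in each wild-type passage 15 library relative to their mean: replicate 1 (circles) is high for short and low for long members, and replicate 2 (squares) the reverse.

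With replicate 2 as the sole passage 15 library of wild type, the members' median log2 difference was -0.15. Calls there again assume that this single library varies like the other groups. Herpud1 (-0.66), Dnajb9 (-0.48) and Sec24d (-0.44) still fell, whereas Creld2 (0.17) and Manf (0.03) were not called, and Sdf2l1 (-0.07) and Pdia6 (-0.01) were negative. Without replicate 1 of passage 15, Hyou1, Sdf2l1 and Pdia6 lost their calls. Without replicate 2 there were 14 higher and 15 lower (all genes, 4357 and 4913 of 15451). Without any 1 wild-type passage 5 library, Sdf2l1, Derl2 and Hyou1 were not called, nor was Pdia6 without replicate 2 of that passage. Derl2 also lost its call without passage 15 replicate 2 or 3, and Sdf2l1 without replicate 3. Library totals gave 14 higher and 10 lower, and changed the split over all genes from 3735 and 4026 to 4706 and 3079. When the fit held only these 2 groups, 3 members were called, all lower. Pit markers fell in 7 of 7 cases and proliferation genes rose in 17 of 18. Mucous neck markers summed 6160 to 8690 CPM at passage 15 against 16900 to 17200 at passage 5, parietal markers 244 to 274 against 618 to 626 and squamous markers 189 to 271 against 10.9 to 13.2. What they contribute was not tested.

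The difference between the genotypes' passage effects was tested as an interaction, the log2 change in knockout minus that in wild type. From 5 to 10 it was lower in 4 members (2.81% of all genes) and higher in 0 (3.13%), with no member higher at an unadjusted p under 0.05, by DESeq2 or by limma. These were Sec61a1 (-0.29 ± 0.060, adjusted p = 0.00442), Dnajc3 (-0.30 ± 0.071, adjusted p = 0.0115), Dnajb9 (-0.48 ± 0.12, adjusted p = 0.0182) and P4hb (-0.25 ± 0.075, adjusted p = 0.0495). P4hb lost its call without any 1 of the 12 libraries. Dnajb9 lost it without knockout passage 10 replicate 2, wild-type passage 10 replicate 1 or wild-type passage 5 replicate 3, which leaves 2 calls. With wild-type passage 15 left out of the fit, 27 members were lower and 0 higher. That fit also raised calls over all genes from passage 5 to 10, from 738 to 2766 in wild type and from 1150 to 3330 in knockout.

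From 5 to 15 the interaction was higher in 10 members (19.7% of all genes) and lower in 4 (18.6%). By exonic length, it was higher in 7 and lower in 1 of the 19 longer members, and higher in 3 and lower in 3 of the 19 shorter ones. Ern1 (1.03 ± 0.20), Dnajb9 (0.71 ± 0.12), Atf6 (0.51 ± 0.16), Sec24d (0.49 ± 0.13), Edem1 (0.42 ± 0.092), Herpud1 (0.38 ± 0.070), Dnajc3 (0.37 ± 0.071), Ssr1 (0.28 ± 0.073), Ssr3 (0.26 ± 0.078) and P4hb (0.25 ± 0.075) were higher. Creld2 (-0.57 ± 0.14), Manf (-0.40 ± 0.14), Hspa5 (-0.33 ± 0.075) and Pdia6 (-0.27 ± 0.095) were lower. With replicate 2 as the sole wild-type passage 15 library, Manf stood at -0.06, Pdia6 at -0.07 and Atf6 at 0.15, and none of these was called under the same assumption about its spread. Without that replicate there were 11 higher and 14 lower, and library totals gave 6 and 9, with all genes going from 2984 and 2810 to 2250 and 3674. Manf lost its call without knockout passage 15 replicate 1, knockout passage 5 replicate 2 or wild-type passage 5 replicate 1, and Pdia6 without knockout passage 15 replicate 1 or 2, knockout passage 5 replicate 1 or wild-type passage 5 replicate 1 or 2. Of the 14 calls, 7 held in every alternative run, those of Hspa5, Dnajb9, Dnajc3, Creld2, Herpud1, Edem1 and Ern1.

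Genes of the same pathways outside the 39 were counted from fixed lists. Xbp1, the transcription factor spliced by IRE1, measured 91.1, 91.9 and 89.7 FPKM in wild type and 131, 127 and 128 in knockout at passage 5 (log2 0.50 ± 0.048, adjusted p = 6.88e-08). It stood at 90.6, 91.3 and 90.3 against 108, 106 and 110 at passage 10 (0.25 ± 0.048, adjusted p = 0.000288) and at 79.6, 70.4 and 79.4 against 127, 129 and 127 at passage 15 (0.74 ± 0.048, adjusted p = 8.83e-11). In Mist1- organoids it was 92.3, 90.1 and 90.4, with a log2 difference of 0.00 from wild type, while 21 members were higher there. The counts cover total Xbp1 transcripts and do not separate the spliced form. Bhlha15, a transcription factor downstream of Xbp1 in secretory cells, measured 2.91 ± 0.17 in knockout against 1.57 ± 0.18 in wild type at passage 5, 1.66 ± 0.091 against 1.96 ± 0.079 at passage 10 and 3.19 ± 0.032 against 0.761 ± 0.15 at passage 15 (SD, n = 3).

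Over all genes 13.0%, 15.9% and 23.6% rose and 17.0%, 18.5% and 25.3% fell in knockout at passages 5, 10 and 15, against which the counts of the other lists can be read. Of 15 other regulators of the response, 3 rose and 1 fell in knockout at passage 5, 2 and 4 at passage 10 and 8 and 3 at passage 15. Creb3l1, a membrane-bound relative of Atf6, rose by 0.55 at passage 5, fell by 0.15 at passage 10 (adjusted p = 0.0384) and rose at passage 15, where wild type held 7.54 and knockout 34.8 FPKM (adjusted p = 4.88e-17). Among 16 PERK and ATF4 targets, the third arm of the response, 7 rose and 4 fell at passage 5, 10 and 4 at passage 10, and 3 and 10 at passage 15. In it Atf3 rose by 0.62 at passage 5 and fell by 2.08 at passage 15, and Ddit4 fell by 1.47 at passage 5.

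Of 24 other ER folding enzymes, 8 rose and 2 fell at passage 5, 8 and 3 at passage 10, and 14 and 2 at passage 15. Pdia5 rose by 0.87 and Fkbp11 by 1.03 at passage 5, and Ero1a, the oxidase that recharges disulfide isomerases, by 1.27 at passage 15. Other degradation genes gave 2 and 3 of 18 at passage 5, 0 and 5 at passage 10 and 8 and 1 at passage 15. Other translocation genes gave 6 and 1 of 15, 0 and 1, and 7 and 1, with Tram1 up by 0.29 at passage 5. Other N-glycosylation genes gave 6 and 1 of 16, 2 and 1, and 8 and 2, with Stt3a up by 0.33 at passage 5. Other COPII genes gave 1 and 0 of 10, 0 and 0, and 6 and 1. Cytosolic heat shock genes rose in 6 and fell in 1 of 12 at passage 5, 7 and 2 at passage 10, and 1 and 7 at passage 15.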

How the data were processed

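Counts of reads per gene (counts) for 56691 genes and FPKM were deposited by the authors for 21 organoid libraries; 6 further libraries of sorted cells from 2 diet groups are not analysed here. Per the submitters' processing notes, cutadapt 1.9.1, HISAT2 2.2.1 and HTSeq 0.6.1 were used, with GRCm38.p5 as the build. Whether strand was used in counting is not given in the sources used here, and 14 members share exon positions with another gene in GENCODE M21, 13 of them on the opposite strand, so their counts carry that uncertainty. Recomputing FPKM from the deposited count, exonic length and total returned the deposited FPKM for 100% of values (tolerance 0.006).

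The counts were modelled with edgeR 4.0.16 (R 4.3.3), group means over 21 libraries, TMM scaling, filterByExpr (minimum count 10, minimum total 15; 15115 genes, 99.91% of counts) and the robust quasi-likelihood F-test, two-sided. Benjamini-Hochberg adjustment covered every gene tested, the threshold on adjusted p was 0.05, and "rose", "fell" and "called" refer to it. SE is the absolute log2 fold change over the square root of F. The text gives the mean level of all 39 members and names, in each of 10 comparisons, up to 6 called in each direction by smallest adjusted p, and from other lists up to 4. Members and lists were chosen with earlier results of these data known. Alternatives were DESeq2 1.42.0, limma 3.58.1 on log2(FPKM + 1) and log2(FPKM + 0.1), median ratio scaling, library totals, no low-count filter, other sets of libraries, a replicate block and each replicate left out; a length offset and the use of 1 passage 15 replicate were chosen after seeing the data. The code was tested on simulated data. Promoters are from RefSeq (GRCm38.p6).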

Additional observations from a re-analysis of the deposited data

Results flagged for a closer look

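Genotypes differed in the passage 10 against 5 effect of 4 members, tested as knockout change minus wild-type change with edgeR: Dnajb9 (-0.48, adjusted p = 0.0182), Dnajc3 (-0.30, adjusted p = 0.0115), P4hb (-0.25, adjusted p = 0.0495) and Sec61a1 (-0.29, adjusted p = 0.00442).

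They also differed in the passage 15 against 5 effect of 14 members. The difference was positive for Dnajb9 (0.71, adjusted p = 0.000121), Dnajc3 (0.37, adjusted p = 0.000397), P4hb (0.25, adjusted p = 0.0123), Herpud1 (0.38, adjusted p = 0.00023), Edem1 (0.42, adjusted p = 0.00124), Atf6 (0.51, adjusted p = 0.0129), Ern1 (1.03, adjusted p = 0.000465), Ssr1 (0.28, adjusted p = 0.00538), Ssr3 (0.26, adjusted p = 0.0114) and Sec24d (0.49, adjusted p = 0.00507). It was negative for Hspa5 (-0.33, adjusted p = 0.00164), Manf (-0.40, adjusted p = 0.025), Creld2 (-0.57, adjusted p = 0.00379) and Pdia6 (-0.27, adjusted p = 0.0302). Dnajb9, Dnajc3 and P4hb appear at both steps with opposite signs. All 14 values of the later step rest on the 3 wild-type libraries of passage 15, which differed from each other more than those of any other group.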

How the results depend on the processing

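Counts of called members depended most on which libraries informed the spread. Calls over all genes moved as well. For knockout against wild type they went from 5204 to 7551 at passage 10 with only the groups compared, and from 7396 to 2735 at passage 15. With only the groups compared, 33 members were called between Mist1+ and Mist1-, 26 for knockout against wild type at passage 10, 15 at passage 15, 19 for wild type 10 against 5, 3 for wild type 15 against 5, 25 for knockout 10 against 5, 20 for knockout 15 against 5, and 25 and 7 for the interactions at 10 and 15. Without wild-type passage 15 in the fit they were 32, 28, 19 (wild type 10 against 5), 26 and 19 (knockout 10 and 15 against 5) and 27 (interaction at 10). Few calls were made between passages in the main test, and there DESeq2 gave 3 (wild type 10 against 5), 6 and 2 (knockout) and 8 (interaction at 10), a length offset 2, 9, 3 and 12, library totals 2 and limma, with either pseudocount, 1 (wild type 10 against 5) and 2 (knockout 15 against 5). Calls with replicate 2 alone of wild-type passage 15 are not counted here, because they assume a spread for that single library. Leaving out 1 library gave 17 to 19, 19 to 22, 4 to 7 and 20 to 33 calls for Mist1 and for knockout at passages 5, 10 and 15. Between passages it gave 0 to 0 and 15 to 29 in wild type, 1 to 2 and 1 to 1 in knockout, and 2 to 3 and 12 to 25 for the interactions. The cause was not tested.

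Listed next are the members called in the main test whose sign turned in an alternative, and those uncalled in the main test and called with the other sign in an alternative. With replicate 2 alone, knockout against wild type at passage 15 gave Sdf2l1 0.23 and Spcs1 0.22, and wild type 15 against 5 gave Dnajb11 -0.19, Sdf2l1 -0.07, Calr -0.14, Pdia6 -0.01, Derl1 -0.14, Sec61b -0.37, Sec61g -0.18, Ssr2 -0.20, Spcs1 -0.16, Spcs2 -0.15 and Rpn2 -0.18. The interaction at 15 gave Dnajb11 0.18, Sec61b 0.52, Sec61g 0.31, Ssr2 0.20, Ssr4 0.28, Spcs1 0.23 and Rpn2 0.17. With the length offset, Derl2 stood at -0.01 for knockout at passage 15, and Hyou1 at 0.00, Derl2 at 0.05 and Ssr1 at 0.04 for wild type 15 against 5. Rpn2, at 0.00 for wild type 15 against 5, stood at -0.10 without passage 15 replicate 1 and at 0.09 without replicate 2.

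Replicate numbers did not pair the libraries: deviations of same-numbered libraries correlated at -0.03 to 0.03. With the replicate number as a block, 21, 24, 11 and 24 members were called for Mist1 and for knockout at passages 5, 10 and 15, 0 and 17 in wild type and 3 and 1 in knockout between passages, and 3 and 14 for the interactions. Depth was not limiting for the 38 members tested, which had 258 counts or more in every library, and Derl3 (10 counts at most) could not be tested.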
